A study of Mus musculus with 25 samples.

Results

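CpG-dense stretches of the genome that carried almost no methylation in fetal haematopoietic stem cells (HSCs) were followed through 23 later libraries, to see which of them left the unmethylated state and where they lie. A stretch is an autosomal tile of 1000 bp that holds 30 or more distinct CpG positions over all libraries. It counted as a member when at least 3 of its CpGs had 5 or more reads in both fetal libraries and the methylated share of those reads was under 20% in both. Of 269669 autosomal tiles with a CpG, 13530 were CpG-dense, 13510 of these were read in fetal cells and 11553 (85.4% of the dense tiles) were members. The other dense tiles read 20% to 80% in both fetal libraries (240 tiles), 80% or more in both (1638 tiles), or fell on different sides of a threshold (79 tiles). The members were thus chosen by their measured fetal level, so every comparison with fetal cells below is a description without a test.

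All libraries were made by reduced representation bisulfite sequencing (RRBS) from HSCs of C57Bl/6 mice, the self-renewing source of the blood. The groups were fetal liver of embryos at e14.5 (n = 2), bone marrow at 3.5 months (young, n = 2) and at 25 months (old, n = 2), and bone marrow of mice aged 3.5 months plus 6 months that had received 0 (n = 3), 2 (n = 3) or 4 (n = 2) doses of 5-fluorouracil (5-FU), a drug that kills dividing cells. Further groups were HSCs recovered from bone marrow after transplantation of 10 (n = 3), 50 (n = 1) or 500 (n = 1) young HSCs and of 10 (n = 2), 50 (n = 1) or 500 (n = 3) old HSCs. The labels give neither the recipients, the time after transplantation nor the sex, and nothing says that replicates came from separate animals, so p-values measure the spread between these libraries, which may be technical. No RNA was measured, so the labelled cell type was not checked against expression. The question of the series is how methylation changes during ontogeny and after a forced history of proliferation.

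CpG islands are stretches rich in CpG that cover the starts of most genes that are active in many tissues, and of many genes that act only in development. Most of the genome's CpGs are methylated by the DNMT3 enzymes and kept so by DNMT1 when DNA is copied, whereas islands are usually protected from methylation, and the TET enzymes can remove it. Islands of developmental genes in blood cells are often held silent by Polycomb proteins without DNA methylation, and gain of methylation at some of them is a known feature of ageing blood.

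The promoters below show what a member looks like at the level of bases. The first left the unmethylated state in 22 of 23 libraries. The next 4 lie in a segment of chromosome 12 that held many of the members that left, and 3 of them share stretches of sequence. The last lies in a tile that stayed under 20% in all 23 libraries. Each run is the 250 bases before a gene's start, 5′ to 3′ on the gene's strand, taken from RefSeq on GRCm38.p6. Capitals mark CpGs that had 5 or more reads and a mean level of 20% or more after transplantation of 10 young cells. CpGs in lower case were lower or not read. Gene names were assigned by matching the spacing of CpGs in the files, which are on mm9, to these promoters. Of 17846 promoters 10088 were placed, so a distance below is to the nearest placed promoter and a closer gene may be missing. Searched against the next chromosome instead, 9.41% of promoters gave a unique match, before matches out of line with their neighbours were dropped.
Hoxa5 (chr6:52204588-52204837, minus strand, 8 of 8 read CpGs in capitals): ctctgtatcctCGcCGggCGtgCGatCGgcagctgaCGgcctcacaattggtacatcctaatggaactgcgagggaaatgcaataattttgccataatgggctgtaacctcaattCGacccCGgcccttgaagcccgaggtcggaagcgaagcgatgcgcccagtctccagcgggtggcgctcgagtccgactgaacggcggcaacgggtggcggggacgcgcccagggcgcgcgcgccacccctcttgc
Gm40847 (chr12:18853705-18853954, plus strand, 18 of 21 read CpGs in capitals): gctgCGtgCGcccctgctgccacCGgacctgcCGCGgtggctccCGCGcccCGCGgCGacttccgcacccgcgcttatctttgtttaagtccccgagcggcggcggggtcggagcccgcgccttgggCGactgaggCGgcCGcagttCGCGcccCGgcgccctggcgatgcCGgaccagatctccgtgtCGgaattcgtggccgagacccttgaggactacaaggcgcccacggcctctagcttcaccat
5730507C01Rik (chr12:18514260-18514509, plus strand, 8 of 15 read CpGs in capitals): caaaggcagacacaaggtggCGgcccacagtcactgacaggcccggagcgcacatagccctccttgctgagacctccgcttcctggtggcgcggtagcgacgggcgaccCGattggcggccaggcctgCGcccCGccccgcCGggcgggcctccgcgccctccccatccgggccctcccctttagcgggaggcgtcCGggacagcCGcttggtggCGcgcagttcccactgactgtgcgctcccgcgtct
Gm9257 (chr12:19606348-19606597, plus strand, 8 of 12 read CpGs in capitals): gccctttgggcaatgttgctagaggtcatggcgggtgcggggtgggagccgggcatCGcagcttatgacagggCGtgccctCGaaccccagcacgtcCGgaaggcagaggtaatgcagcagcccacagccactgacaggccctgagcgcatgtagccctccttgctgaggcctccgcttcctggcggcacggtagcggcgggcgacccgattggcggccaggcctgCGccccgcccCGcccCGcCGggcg
Gm10479 (chr12:20415271-20415520, plus strand, 5 of 11 read CpGs in capitals): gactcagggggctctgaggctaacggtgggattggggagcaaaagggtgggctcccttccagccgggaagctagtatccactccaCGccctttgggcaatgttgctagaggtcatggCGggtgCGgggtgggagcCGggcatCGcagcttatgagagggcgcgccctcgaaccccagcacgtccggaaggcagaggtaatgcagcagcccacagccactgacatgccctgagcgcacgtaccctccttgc
Hoxd10 (chr2:74691641-74691890, plus strand, 0 of 13 read CpGs in capitals): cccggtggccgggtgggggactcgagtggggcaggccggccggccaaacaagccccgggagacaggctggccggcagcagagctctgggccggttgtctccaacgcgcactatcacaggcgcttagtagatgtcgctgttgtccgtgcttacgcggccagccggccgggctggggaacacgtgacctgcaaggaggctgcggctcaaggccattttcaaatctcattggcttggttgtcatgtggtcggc

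At the median the members stayed near their fetal level. They held 643602 of the 2014659 autosomal CpGs (31.9%), with a median of 50 CpGs each, and 8104 of them (70.1%) read under 1% in both fetal libraries. The median level of a member was 0.447% and 0.303% in the fetal libraries, 1.28% and 1.10% in the young, 1.62% and 1.90% in the old, 0.842% to 1.27% in the mice without 5-FU, 0.365% to 0.474% after 2 doses, 0.155% and 0.342% after 4 doses, and 0.268% to 0.528% in the 11 transplanted libraries. The young, old and 0-dose libraries thus had the highest medians, and all 25 were under 2%. 

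A member was said to have left the unmethylated state in a library when it read 20% or more there and at least 10 points above the higher fetal library. By this rule 11180 of 11553 members (96.8%) left in no library, and 373 (3.23%) left in 1 or more of 23. Of the 373, 126 left in a single library, 89 in 12 or more and 13 in all 23. Members that left in every library of a group (n as above) numbered 20 in young, 111 in old, 30 with 0 doses of 5-FU, 41 with 2 doses and 48 with 4 doses. After transplantation the numbers were 84 with 10 young cells, 122 with 50, 75 with 500, 103 with 10 old cells, 131 with 50 and 79 with 500. Such a number can only fall as libraries are added to a group, so the numbers are not comparable between groups of 1, 2 and 3: single libraries gave 82 and 150 with 4 doses, 99 to 121 with 10 young cells, 108 and 177 with 10 old cells and 83 to 164 with 500 old cells. Leaving the state seldom meant becoming fully methylated, since only 5 to 10 members, in each group with replicates, were at 50% or more in every library.

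**Figure D1:**
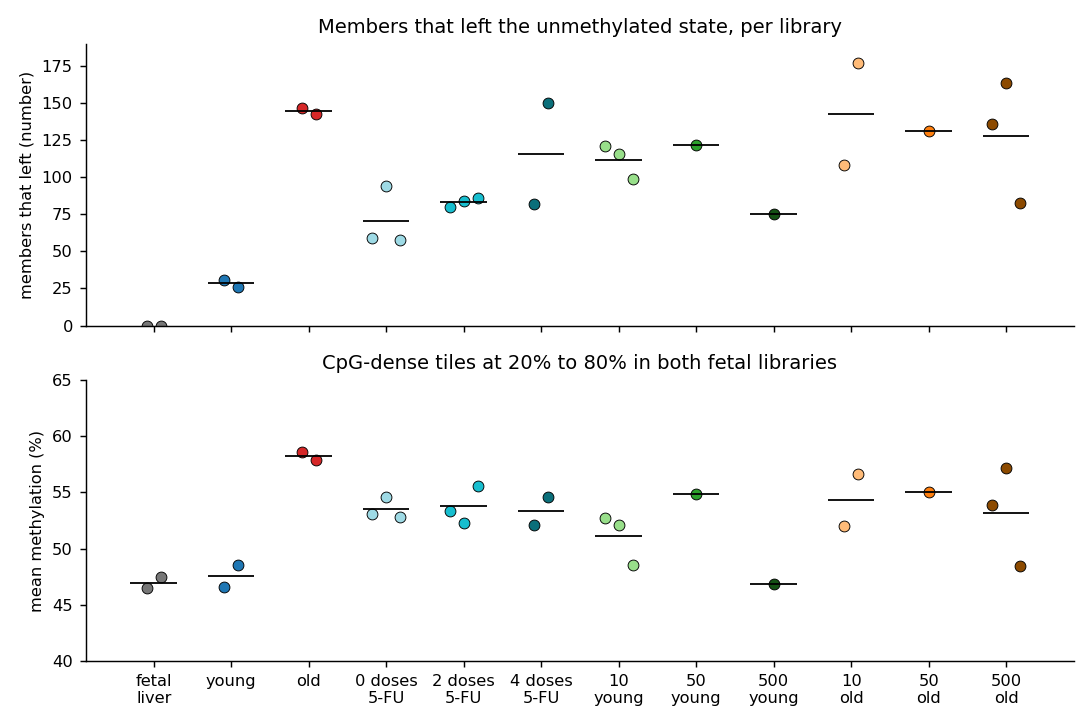
Upper panel, number of members that left the unmethylated state in each library (points; the line is the group mean); lower panel, mean methylation in percent of the 240 CpG-dense tiles that read 20% to 80% in both fetal libraries. The young libraries had 31 and 26 such members and the old 147 and 143; the lower panel puts young at 46.6% and 48.6% and old at 58.6% and 57.9%.

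The level of other CpG-dense tiles also differed between libraries. The 240 dense tiles at 20% to 80% in fetal cells averaged 46.6% and 48.6% in the young libraries, 58.6% and 57.9% in the old, 48.6% to 52.7% after 10 young cells and 52.0% and 56.6% after 10 old cells. Young libraries were also the deepest, with a median of 82.3 and 94.6 reads per CpG of a member against 22.4 to 48.1 in the 21 other libraries outside fetal liver. Within the group of 500 old cells the replicate with the fewest members that left (83) had the lowest such mean (48.5%) and that with the most (164) the highest (57.2%). A young library and a library of 10 young cells both averaged 48.6%, with 26 and 99 members that left. Over 68 dense tiles at 20% to 80% in all 25 libraries the means were 40.3% and 41.6% in young and 43.6% to 53.8% in the other libraries outside fetal liver. By that measure the 2 libraries at 48.6% read 41.6% and 47.1%. The part of the library level in the counts was not tested. The calls below were therefore repeated with each library's shift removed.

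The old libraries were first compared with the young ones, which also differed from them in depth and library level as given above. Of 11481 members tested, 24 gained and 1 lost methylation, that is 0.209% gained against 0.698% of all 90382 tiles; 0.107% of all tiles lost and 0.805% were called in either direction. Tested levels use the CpGs with 5 or more reads in every library of a fit, and so differ slightly from the levels per library given elsewhere. A call needed an adjusted p under 0.05 (quasi-binomial fit across all tiles, Benjamini-Hochberg) and a difference of 10 points or more. In all 24 gains the old libraries lay above the young ones, but the share of all called tiles so separated was not computed. The gains spanned 11.9 to 35.2 points, with a median of 18.4, while the median member differed by 0.572 points.

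The largest gain with age lay 1.2 kb from the promoter of Zfp503, a zinc finger gene active in development (chr14:22810001-22811000 on mm9). Over the CpGs of the fit it read 39.1% and 38.2% in young and 70.2% and 77.4% in old cells, a difference of 35.2 points (73.8% ± 5.05 against 38.7% ± 0.585, SD, n = 2 each; adjusted p = 0.00168). It had left the fetal level of 3.10% and 8.12% in all 23 libraries. A tile 24.2 kb from Neurl1b, a ubiquitin ligase of the Notch pathway (chr17:26576001-26577000), was the most methylated member of all, with a median of 86.7% over the 23 libraries. Fetal cells read 10.9% and 8.71% there, young cells 58.6% and 59.7% and old cells 91.3% and 90.9% (difference 32 points, adjusted p = 0.00124). Every one of its 25 CpGs was at 50% or more in old cells and 1 was in fetal cells.

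Gains of 22.3 to 28.8 points were also called beside Fam83g (chr11:61498001-61499000, 0.1 kb from the promoter), beside the kisspeptin receptor gene Kiss1r (chr10:79384001-79385000, 4.3 kb), beside Ttc9b (chr7:28443001-28444000, 4.1 kb), on chromosome 15 (chr15:75920001-75921000) and on chromosome 18 (chr18:9214001-9215000). Those at chr7:51844001-51845000 (23.7 points) and chr2:91297001-91298000 (20.8 points) were 2.39 and 2.96 points when every CpG of the tile counted alike. Another lay on chromosome 17 (chr17:12700001-12701000, 31.5 points) and is taken up below. The count of 25 calls was 2 to 12 when any of the 4 young or old libraries was left out, 4 by limma (a linear model on transformed levels), 7 with each library's shift removed (3 gained, 4 lost) and 0 in a fit of all 23 libraries, and of the 24 gains only the tile near Zfp503 was called whichever of these libraries was left out. The single loss, at the Arhgap21 promoter (chr2:20889001-20890000), rested on 1 young library, which read 32.4% against 3.13% in the other, and with CpGs over 500 reads left out the difference was 0.0356 points.

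HSCs recovered after transplantation of 10 young cells were compared with young cells, which are also the controls of the comparison with age. Of 11481 members, 95 gained and 5 lost methylation. The gained share was 0.827% of members against 1.12% of all tiles. The lost share was 0.0436% against 17.5% of all tiles, whose median difference was -4.47 points. A loss needed a fall of 10 points, which a member under 10% cannot show, and the 95th percentile of members was 6.36% and 6.00% in young. The rule thus kept most members from being called as lost. Lost shares of members and of all tiles are not comparable, here or in the other comparisons. In all 95 the 3 transplanted libraries were above both young ones, and the gains spanned 10.2 to 46.0 points with a median of 14.4. How many of all called tiles were separated in this way was not computed, so the separation adds no support to the calls. Without young replicate 1 the gains numbered 34 and without young replicate 2 they numbered 8, against 35 with each library's shift removed and 18 in a fit of all 23 libraries.

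The largest gain, on chromosome 8 (chr8:87308001-87309000, the nearest matched promoter 87.0 kb away), was also the largest in both comparisons of transplanted old cells. In the whole series it read 2.48% and 2.60% in fetal liver, 15.3% and 17.6% in young, 27.2% and 16.1% in old, and 17.6% to 23.1% with 0 doses of 5-FU. After 10 young cells it read 71.8%, 60.9% and 59.7%, after 50 young cells 64.8% and after 500 young cells 40.2%. After 10 old cells it read 58.4% and 67%, after 50 old cells 63.3% and after 500 old cells 57.3%, 60.6% and 51%. All transplanted libraries lay above all others, except that 500 young cells (40.2%) lay within the range of the 5-FU groups, where 2 doses gave 26.9% to 41.1% and 4 doses 21.1% and 47.7%. Over the CpGs of the fit the gain was 46.0 points with 10 young cells (63.9% ± 5.73, n = 3, against 18% ± 0.611, n = 2; adjusted p = 3.15e-05), 42.4 points with 10 old cells (adjusted p = 0.000136) and 35.8 points with 500 old cells (adjusted p = 0.000204). The call held in all alternatives run for each comparison. The gain was spread over the tile, with 26 of its 29 CpGs at 50% or more after 10 young cells and none in young or old cells.

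**Figure D2:**
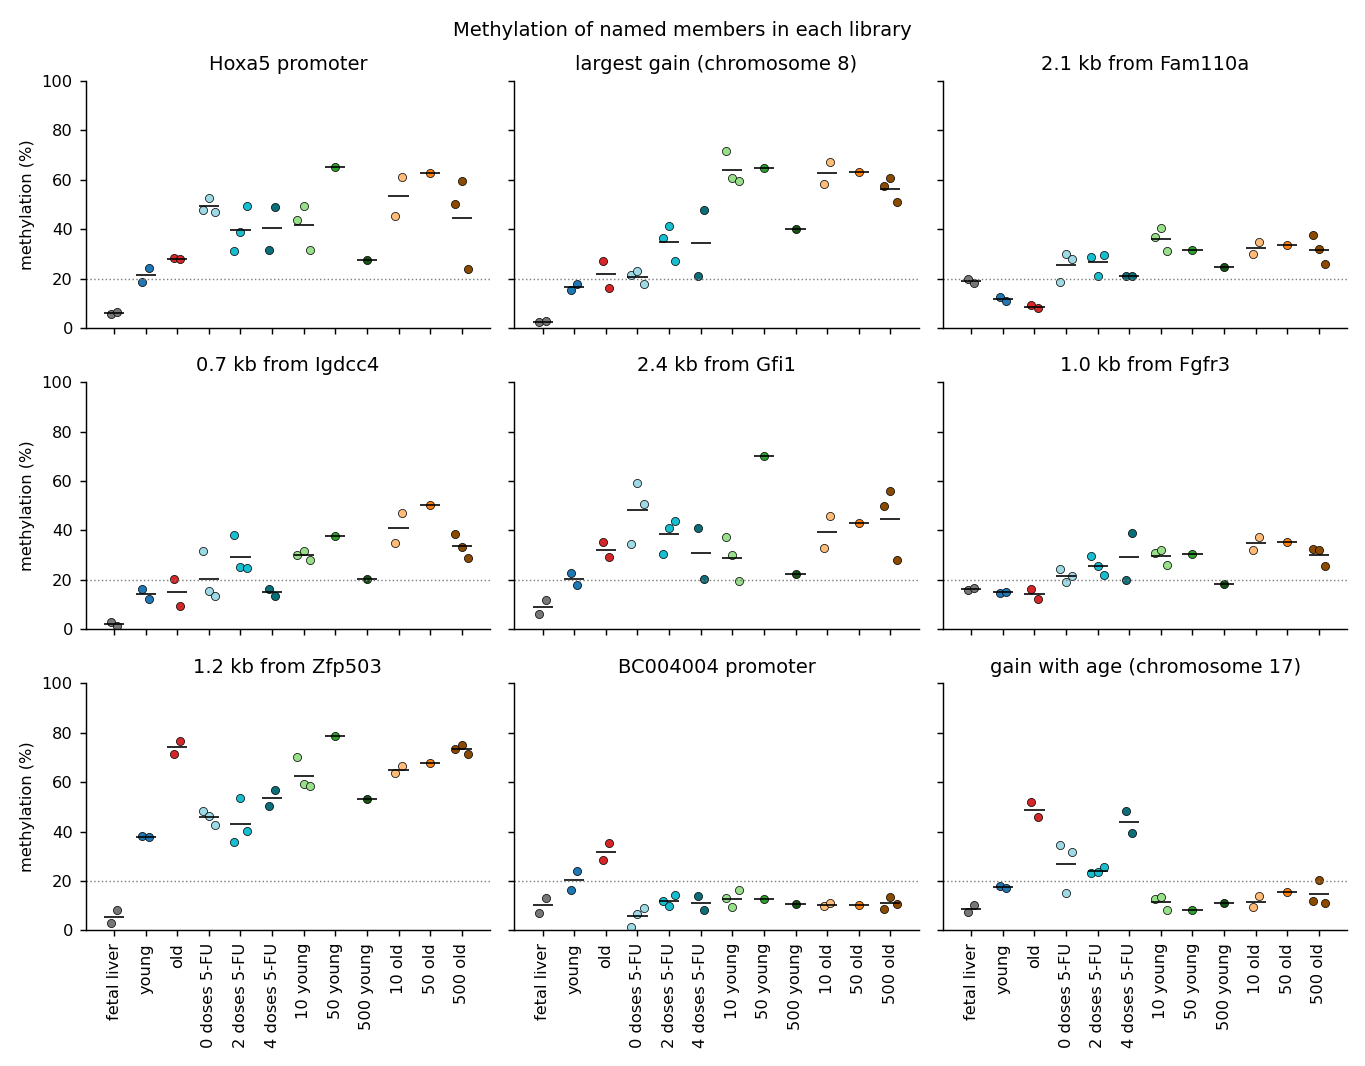
Methylation in percent of 9 named members in every library (points; the line is the group mean; the dotted line marks 20%), by group on the horizontal axis. In the chromosome 8 panel the libraries of 10 young cells lie at 59.7% to 71.8% and the young ones at 15.3% and 17.6%; the last panel is highest in old mice (52.1% and 45.8%) and reads 8.18% to 20.5% after transplantation.

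A small set of members gained in the same way in cells of both donor ages. The tile 2.1 kb from Fam110a (chr2:151796001-151797000), a gene whose protein lies at the centrosome and spindle, read 11% and 9.88% in young and 35.6%, 38.7% and 29.5% after 10 young cells (24.2 points, adjusted p = 0.00108). After 10 old cells it gained 21.2 points (adjusted p = 0.00239) and after 500 old cells 20.9 points (adjusted p = 0.00206), from 7.82% and 7.87% in old cells. Young and old libraries lay below the fetal level of 19.7% and 18%, and transplanted ones above it. A tile 14.2 kb from Mars1 (chr10:126763001-126764000), which encodes the tRNA synthetase for methionine, gained 24.9 points with 10 young cells, 31.6 with 10 old cells and 26.3 with 500 old cells (adjusted p = 0.00307, 0.00132 and 0.00259 by the quasi-binomial fit). The tile 0.7 kb from Igdcc4 (chr9:64950001-64951000), an immunoglobulin-family gene, went from 21.2% and 8.30% in old cells to 37.1% and 46.3% after 10 old cells (26.4 points, adjusted p = 0.00297) and gained 16.7 points with 10 young cells.

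A tile on chromosome 15 with no matched promoter near it (chr15:76288001-76289000) gained 18.6, 23.4 and 15.3 points with 10 young, 10 old and 500 old cells. Beside Gfi1 (chr5:108150001-108151000, 2.4 kb), a transcriptional repressor needed by HSCs and neutrophils, levels went from 22.3% and 21.1% in old cells to 38.4% and 46.2% after 10 old cells (20.4 points, adjusted p = 0.0197), and the gain with 10 young cells was 19.6 points. At the same tile the 3 libraries with 0 doses of 5-FU read 34.3%, 59.3% and 50.8% against 22.8% and 17.8% in young. Beside Fgfr3 (chr5:34066001-34067000, 1.0 kb), a receptor of fibroblast growth factors, the gains were 14.6, 19.1 and 16.2 points with 10 young, 10 old and 500 old cells. Without old replicate 2 the gains with 10 old cells at the Igdcc4 and Fgfr3 tiles were not called (adjusted p = 0.0597 and 0.0531), nor was that with 10 young cells at the Mars1 tile without young replicate 2 (adjusted p = 0.0537) or that with 500 old cells at the Fam110a tile without old replicate 1 (adjusted p = 0.0561). With 500 old cells the Igdcc4 and Fgfr3 calls were also lost without old replicate 2 (adjusted p = 0.212 and 0.132). Leaving out either old library ended the call at the Gfi1 tile in both comparisons with old donors (adjusted p of 0.0901 to 0.175).

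The Hoxa5 promoter was the best known gene among the members that left most often. Hoxa5 encodes a homeobox transcription factor of the HoxA cluster, which is active in HSCs. Its tile (chr6:52154001-52155000, 48 CpGs) read 5.74% and 6.53% in fetal liver, 18.4% and 24.4% in young and 28.3% and 27.9% in old. It read 47.7%, 52.8% and 47.1% with 0 doses, 31.2% to 49.2% with 2 doses and 31.5% and 49.1% with 4 doses. After 10, 50 and 500 young cells it read 31.7% to 49.2%, 65% and 27.5%, and after 10, 50 and 500 old cells 45.3% and 61.3%, 62.7%, and 23.8% to 59.5%. The 0-dose libraries were thus above the young and the old libraries, and the transplanted libraries lay on both sides of them. Over the CpGs of the fit it gained 22.8 points with 10 young cells (50.6% ± 6.79, n = 3, against 27.8% ± 6.55, n = 2; adjusted p = 0.0186) and 24.6 points with 10 old cells (adjusted p = 0.0198). By limma these adjusted p were 0.0673 and 0.0578, and leaving out either young library, replicate 2 of 10 young cells or any of the 4 libraries of old and 10 old cells raised them to between 0.0517 and 0.135. The 8 CpGs printed in capitals above averaged 6.44% in fetal, 43.6% in young, 49.7% in old and 50.9% after 10 young cells. With 0, 2 and 4 doses of 5-FU they averaged 78.3%, 63.2% and 56.9%. These 8 CpGs were thus, on average, already methylated in young cells, but single ones differed. Those 213 and 320 bp from the tile centre rose from 14.85% and 10.42% in young to 40.96% and 53.95% after 10 young cells. Those at 298, 308 and 316 bp fell from 61.83%, 44.74% and 61.11% to 57.05%, 35.65% and 50.6%. Of all 45 CpGs read in the tile, 6 were at 50% or more in young cells and 17 after 10 young cells.

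**Figure D3:**
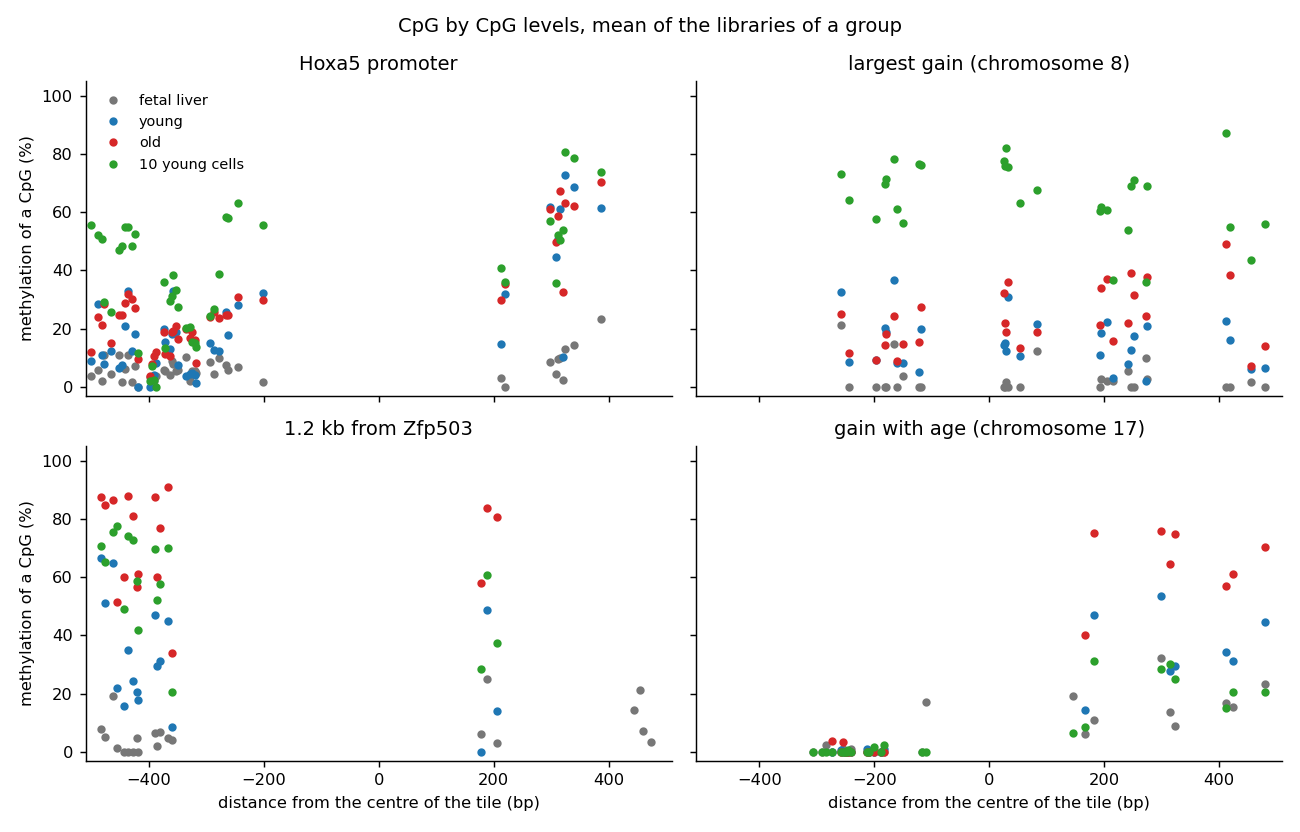
Methylation in percent of single CpGs by distance from the centre of the tile in bp, in 4 members, for fetal liver, young, old and 10 young cells (each point is the mean of the group's libraries). In the chromosome 8 tile the points after 10 young cells lie at 36.0% to 87.2% and the young ones at 2.17% to 36.7%; in the chromosome 17 tile the CpGs left of the centre lie at 3.85% or less in young, old and 10 young cells.

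Old donors lost as well as gained. With 10 old cells against old, 22 members gained and 27 lost. These were 0.192% and 0.235% of members, against 0.578% and 23.4% of all tiles, whose median difference was -6.48 points. With 500 old cells, 12 gained and 26 lost. These were 0.105% and 0.226% of members, against 0.392% and 8.52% of all tiles (8.91% in either direction), whose median difference was -3.83 points. The lost shares meet the same floor, since the 95th percentile of members was 9.77% and 9.20% in old. Both comparisons share the old libraries with each other and with the comparison with age, so their calls are not independent. Leaving out 1 old library left 5 or 9 gains and 14 or 15 losses with 10 old cells, and 4 gains and 4 or 7 losses with 500, and without replicate 1 of the 500-cell group the counts were 6 and 10. Of the members that gained with 10 young cells (95) and with 10 old cells (22), 13 were shared, which is 13.7% of the first list and 59.1% of the second. The overlap over all tiles that gained was not computed, so these shares cannot be called particular to members. Whether the effect of 10 cells differed between young and old donors was tested by an interaction term in the same fit. No member passed an adjusted p of 0.05, 118 had an unadjusted p under 0.05 (1.03% of members against 5.30% of all tiles), and limma passed none either.

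Most of these losses were small once every CpG counted alike. A tile's level weights each CpG by its reads, so a library that reads one methylated CpG more deeply shows a higher tile. The part of read depth at single CpGs in these losses was not tested. With every CpG given the same weight, 87 of the 95 gains with 10 young cells, 19 of 22 with 10 old, 10 of 12 with 500 old and 20 of 24 with age still differed by 10 points or more in the same direction, with no overlap of the libraries. Of the losses this held for 6 of 27 with 10 old cells, 4 of 26 with 500 old cells, 1 of 5 with 10 young cells and for the single loss with age not at all. A further loss with 10 old cells reached 10 points with overlapping libraries. By limma on such equally weighted levels, 78 members gained and none lost with 10 young cells, 15 gained and 8 lost with 10 old cells, and 11 gained and 3 lost with 500 old cells. With age 3 gained and none lost. The members recomputed with equal weights had been called from the same reads, so the gains kept are no independent support. No share of all tiles was computed for them or for these limma counts.

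The promoter of BC004004 (chr17:29405001-29406000) is an example of a loss that was small with equal weights. It read 28% and 38.0% in old and 10.6% and 9.72% after 10 old cells (-22.8 points, adjusted p = 0.00289). In fetal, young and old cells and after 10 young, 10 old and 500 old cells, 2 of its 15 CpGs were at 50% or more and the other 13 under 20%, and with equal weights the difference was -2.65 points. At Svbp, which encodes a partner of the vasohibins (-19.0 against -1.58 points with equal weights), and at Sema4g, a semaphorin gene (-18 against -1.18), the numbers of CpGs at 50% or more were also the same in old cells and after 10 old cells (2 and 1). At D17H6S56E-5 (-15.6 against -4.37 points) and the tile chr2:91297001-91298000 (-26.6 against -4.31) they went from 5 in old cells to 0 and 1. At Sema4g a gain with age of 16.2 points was -0.11 with equal weights. The losses with 10 young cells at Josd1, Col23a1 and Arhgap21 rested on 1 young library, which read 38.7%, 39.1% and 32.4% where the other read 2.54%, 1.64% and 3.13%, and they were -5.44, -1.39 and -4.47 points with equal weights.

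A loss called in every alternative was that of the chromosome 17 tile that had gained with age (chr17:12700001-12701000). It read 7.29% and 10.3% in fetal, 18.1% and 17% in young, and 52.1% and 45.8% in old cells. After 10 old cells it read 9.28% and 13.9%, after 50 old cells 15.7% and after 500 old cells 12%, 20.5% and 11.1%, and after transplantation of young cells 8.18% to 13.4%. All 11 transplanted libraries were under the old ones, 10 of them were also under both young ones, and 4 doses of 5-FU gave 48.5% and 39.6%. The loss was 37.4 points with 10 old cells and 34.2 with 500 (adjusted p = 0.0002 and 0.000197 by the quasi-binomial fit), or 18.3 and 16.2 points with equal weights. The gain with age was 12.1 points with equal weights and was then not called (adjusted p = 0.178 by limma). That gain and these losses rest on the same old libraries, so they are not independent. In old cells 7 of 20 CpGs were at 50% or more, all on one side of the tile, and 12 were under 20%. A chromosome 18 tile (chr18:30427001-30428000) fell by 28.5 points with 10 old cells and 24.8 with equal weights, and without old replicate 1 the first value was 14.9 (adjusted p = 0.183).

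The 5-FU mice gave almost no calls. Of 11048 members tested in a fit of young and 5-FU libraries, 1 gained and 0 lost with 0 doses against young (0.0227% and 0.00175% of 57204 tiles, 0.0245% in either direction). With 2 against 0 doses and with 4 against 0 doses no member was called in either direction (0 and 0.00524% of all tiles gained and lost with 2 doses, and 0 and 0.00175% with 4). At an unadjusted p under 0.05 there were 325 and 307 members (2.94% and 2.78% of members against 4.34% and 7.74% of all tiles). By limma 26 members gained and 3 lost with 2 doses, and 30 gained and 7 lost with 4. The share of all tiles called by limma was not computed, so these counts cannot be set beside it. The single gain lay at the Thrap3 promoter (chr4:125879001-125880000), a gene for a protein of mRNA splicing and transcription. It read 49.6%, 53.7% and 50.4% with 0 doses and 5.88% and 7.79% in young. With CpGs over 500 reads left out the difference was -1.05 points, and with equal weights 2.82. The libraries of 0 doses (median 22.4 to 26.2 reads per member CpG) and 4 doses (23.6 and 25.6) were less deeply read than those of 2 doses (41.8 to 48.1).

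Where the members that left lie was then asked of the whole set, as a description. The fetal level, which the rule itself used, went with leaving. Part of this gradient follows from the definition of leaving. A member above 10% in fetal cells had only to gain 10 points, and one with a lower level had to gain more to reach 20%. Of members under 1% in both fetal libraries, 8 of 8104 left in any library, against 3.80% at 1% to 5%, 27.4% at 5% to 10% and 59.8% at 10% to 20%. Members just inside the threshold (fetal mean of 18% to 20%, 14 tiles) had a median of 18.8% in fetal, 17.7% in young, 30.3% in old and 27.9% after 10 young cells. Dense tiles just outside it (20% to 22%, 23 tiles) had 20.7%, 18.1%, 28.3% and 17.2%. The share that left in any library was 4.38% at 30 to 49 CpGs, 2.31% at 50 to 69 and 1.81% at 70 or more, whereas the share that left in 12 or more was 0.797%, 0.704% and 0.791%. By the highest adjacent tile in fetal cells, it was 2.69% where that tile was under 20%, 11.4% at 20% to 50%, 8.2% at 50% to 80% and 4.6% at 80% or more.

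**Figure D4:**
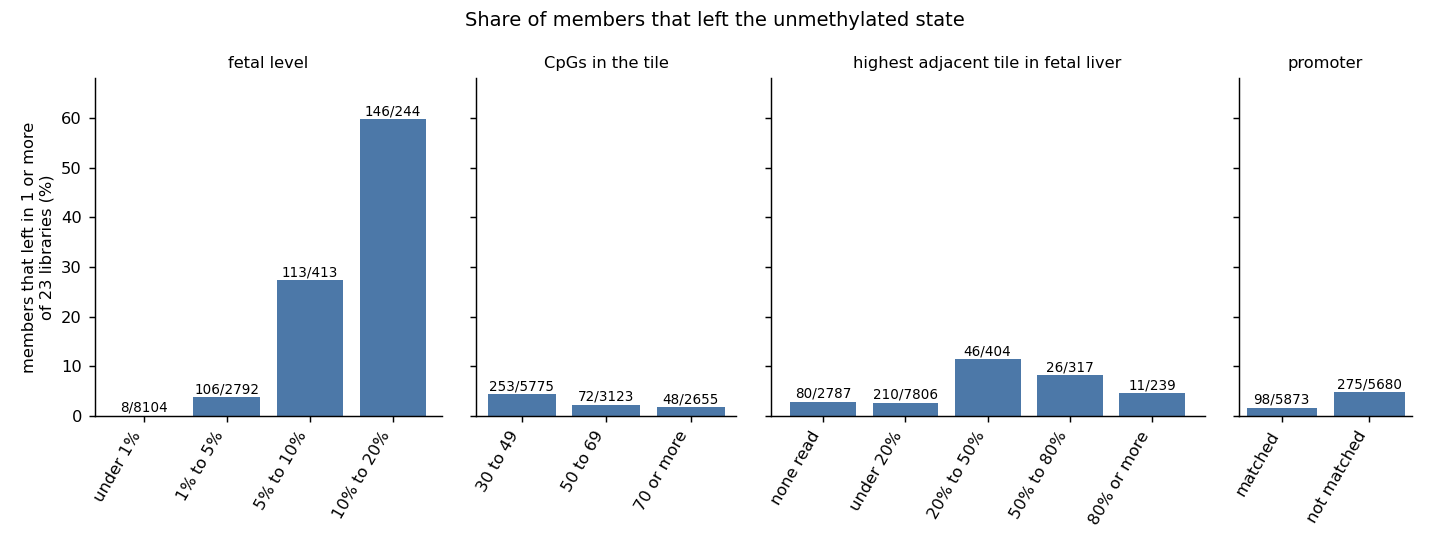
Percent of members that left the unmethylated state in 1 or more of 23 libraries, by fetal level, number of CpGs, level of the highest adjacent tile in fetal liver and whether a RefSeq promoter was matched (bars from 0, with numbers of members). The bar reaches 59.8% at a fetal level of 10% to 20%.

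A promoter was matched on 5873 members, of which 98 left (1.67%), and of the 5680 without one 275 left (4.84%). Matched promoters were also more frequent at low fetal levels, on 56.5% of members under 1% and 27.9% of those at 10% to 20%, and the part of the fetal level in this difference was not tested. Of the 95 members that gained with 10 young cells 17 had a matched promoter. The match is incomplete and has no entries for chromosome 18, so members without one may still hold a gene start. In the 22 members that left and had a methylated tile on one side only, the 500 bp nearer that side were higher in 18 in old cells, with medians of 34.7% near and 9.29% far. They were already higher in 19 of 22 in fetal cells (13.9% and 2.08%). In members that never left, the nearer 500 bp were higher in 161 of 242 in old cells, with medians of 2.59% and 1.63%.

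The counts by gene group stand beside 98 of all 5873 members with a matched promoter (1.67%), a share by which lists of this size would hold few or no members that left. Of 11 members at Hox promoters, which pattern the body axis and several of which act in HSCs, 2 left (18.2%), Hoxa5 in 22 libraries and Hoxa6 in 3. Hoxa6 lies next to Hoxa5 and read 3.09% and 4.98% in fetal, 7.87% and 7.93% in old and 15.7% and 21.1% after 10 old cells. There it was called as a gain of 10.6 points, or 9.8 with equal weights. That call did not hold in every fit with a library left out. The tile of Hoxd10, whose promoter is printed last, had means of 2.22% in fetal, 9.09% in young and 16.4% in old, with a highest library of 19.2%, and left in none. The 13 read CpGs of the printed Hoxd10 promoter averaged 1.28%, 7.06% and 20.2% in these groups. None of 74 members at developmental transcription factor promoters left. The highest were Phox2a, a regulator of autonomic neurons, at a median of 11.6% over the 23 libraries, Hmx1 at 8.19% and Tfap2e at 5.61%, and the list had a median of 1.84% in young, 2.95% in old and 1.85% after 10 young cells, against 1.08%, 1.60% and 0.348% for all members with a promoter.

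Lists of blood and chromatin genes held 2 members that left. Of 18 members at promoters of HSC transcription factors, 1 left, Gata2, in 1 library of 2 doses of 5-FU (22.3%, against 8.52% and 9.75% in the other 2); Runx1, the regulator of the first blood stem cells, read at most 4.44%, and Zfpm1, a partner of GATA factors, at most 3.94%. None of 9 members at lineage genes left, with Irf8, a regulator of monocytes, at most 9.32%. Of 10 at DNA methylation enzymes and readers, Uhrf2 left in 1 library with 0 doses (23.2%), while Dnmt3a read at most 5.81%. None of 16 Polycomb members and none of 5 at cyclin kinase inhibitors left. Cdkn2a, which halts the cell cycle in ageing cells, was highest of these, at a median of 4.75%. Among 41 members at ubiquitously expressed genes, 1 left, Rpl28, in 1 library with 4 doses (29.1%). No member carried a matched promoter of the clustered protocadherins. Called members in these lists, over the 7 comparisons, were the gain of Hoxa5 with 10 young cells and those of Hoxa5 and Hoxa6 with 10 old cells.

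Beyond the lists, the promoters that left in 12 or more libraries were 16. Apart from Hoxa5 and 8 others they were Fam229a (chromosome 4, in all 23, median 37.4%), Gm13205 (chromosome 4, in all 23, 69.1%), Tcfl5, a transcription factor of germ cells (chromosome 2, 21 libraries, 32.6%), Nav1, a neuron navigator gene (chromosome 1, 16 libraries, 40.8%), Catsperz, part of a sperm calcium channel (chromosome 19, 17 libraries), Septin9, a gene of the septin cytoskeleton (chromosome 11, 15 libraries, 27.1%), and Mir9-3hg, the host of a neuronal microRNA (chromosome 7, 13 libraries, 21.0%). Nav1 and Tcfl5 gained 20.8 and 19.7 points with 10 young cells, which with equal weights were 8.8 and 20.8 points.

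Of the other 8, 7 lay in 1 segment. Between 17999001 and 24938000 on chromosome 12 (mm9) lay 51 members, 0.441% of all. Of these 43 left in some library (84.3%), 31 left in 12 or more (34.8% of the 89 that did), and 37 gained with 10 young cells (38.9% of the 95). The bounds were set after the levels had been seen, so no test is given. A smaller group of 12 members on chromosome 13 (65214001 to 67035000) held 6 that left, all in 12 or more libraries, and 4 that gained. Outside both, 324 of 11490 members left (2.82%) and 54 of 11419 gained with 10 young cells (0.473%). The chromosome 12 members had fetal medians of 8.36% and 8.27%, whereas 70.1% of all members were under 1% in both fetal libraries. Of all members at a fetal level of 5% to 10%, 27.4% left. The part of the fetal level in the difference between the segments and the rest was not tested.

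The median level of the chromosome 12 members followed the groups. It was 8.36% and 8.27% in the fetal libraries, 13.2% and 13.7% in young, 26.0% and 26.6% in old, 15.6% to 19.1% with 0 doses, 17% to 18.8% with 2 doses and 18% and 21.3% with 4 doses of 5-FU. It was 27.6%, 27.7% and 27.2% after 10 young cells, 27.3% after 50 and 21.5% after 500, and 26.3% and 33.6%, 29.0%, and 23% to 29.4% after 10, 50 and 500 old cells. Old and transplanted libraries lay above all young and 5-FU libraries, with 21.3% in 1 library of 4 doses just under the 21.5% of 500 young cells. In the segment 7 members were called as gains with age, and no member of the segment was called with 10 or 500 old cells against old. With each library's shift removed 7 of the 37 gains were called, and without young replicate 1 and 2 the numbers were 8 and 0. With equal weights per CpG limma called 37.

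**Figure D5:**
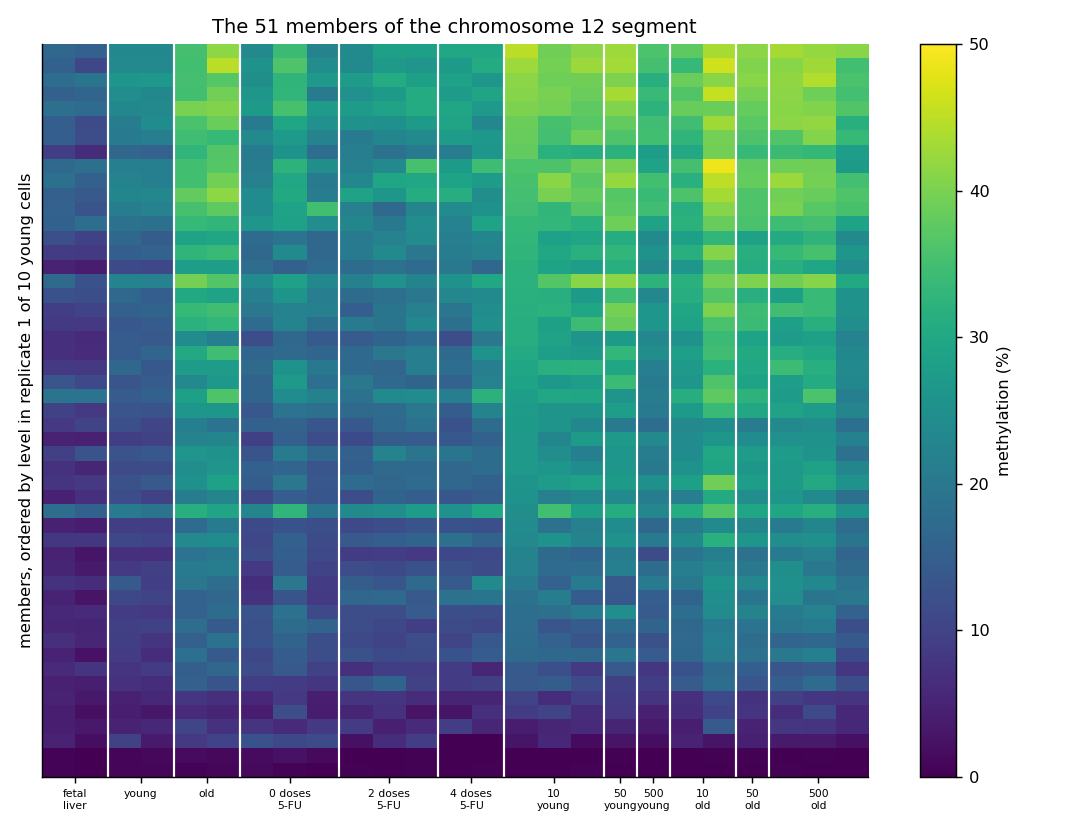
Methylation in percent (colour, 0 to 50) of the 51 members of the chromosome 12 segment (rows, ordered by level in the first library of 10 young cells) in each of the 25 libraries (columns, grouped). The medians rise from 8.36% and 8.27% in fetal liver to 26.0% and 26.6% in old cells and 27.2% to 27.7% after 10 young cells.

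The members of this segment resemble each other in sequence. Of the 51, 39 (76.5%) had a run of 12 successive CpGs with the same spacing as a run in another member, with up to 14 such partners, against 155 of 11490 members (1.35%) outside both segments. Of all 197 members with such a copy 59 left (29.9%), and of the 11356 without one 314 left (2.77%). The part of the fetal level in this difference was not tested either. In the promoters printed above, Gm9257 and Gm10479 shared a run of 68 bases letter for letter, and 5730507C01Rik and Gm9257 one of 42 bases. Hoxa5 and Hoxd10 shared no more than 10 bases with any of the others. The 13 promoters matched in the segment included those of Adam17, a protease that releases surface proteins, Iah1 and Ywhaq, and a name there may stand for any of several near-identical copies. How reads that fit several copies were placed is not given in the sources used here, and reads per CpG in the segment were 34.0 at the median against 42.3 for all members. The part of read placement in these levels was not tested.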

How the data were processed

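RRBS, which cuts DNA at CCGG sites and so reads mainly CpG-rich fragments, was read in 25 libraries. The authors deposited, per library, methylated and total reads at each CpG and a score, the methylated share scaled to 1000. Per the submitters' processing notes, positions are on mm9. No source used here names the aligner or caller, or says how duplicates and multi-mapping reads were treated. Libraries held 22835325 to 105187091 CpG reads, with a median of 10 to 54 per CpG. Reads carry no molecular identifiers.

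Members and gene lists were chosen with earlier results of these data known. Each 1000 bp tile was fitted with a quasi-binomial logistic model of its reads (CpGs with 5 or more reads in every library of the fit, at least 3 CpGs, moderated dispersion, F test, Benjamini-Hochberg over all tiles), for 15 young, old and transplanted libraries and for 10 young and 5-FU libraries. Fetal libraries chose the members and entered no fit. The fits were tested on simulated data. Alternatives were limma 3.58.1 (R 4.3.3), other filters, equal weights per CpG, removal of each library's shift, a fit of 23 libraries and leaving out each library; the equal weights, the limit of 500 reads, the segment counts and the interaction term were added after seeing the data. Replicate numbers did not pair libraries, since same-numbered deviations correlated at -0.061 to 0.041.

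Named tiles were the 10 largest gains and 5 largest losses per comparison (3 for 5-FU) without overlap of libraries, the 10 most methylated members and the top 3 of each gene list. Of these, the text describes those the results turn on; other promoters were chosen after their values were seen. Of 17846 RefSeq promoters, 10088 were placed by CpG spacing; chromosome 18 had none. Python 3.11.15, numpy 2.4.6, scipy 1.17.1 and pandas 2.3.3 were used.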

Additional observations from a re-analysis of the deposited data

How the results depend on the processing

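For old against young (25 called) the count was 0 in the fit of 23 libraries, 7 with library shifts removed, 4 by limma, 3 by limma with equal weights, and 2 to 12 with a library left out. For 10 young cells (100) it was 24 in the fit of 23 libraries, 53 with shifts removed and 17 to 101 with a library left out. For 10 old cells (49) these were 14 in the fit of 23, 23 with equal weights and 19 to 29. For 500 old cells (38) they were 7, 14 and 8 to 34. For 0 doses against young (1) the count was 11 in the fit of 23, 4 by limma, and 0 with shifts removed, without CpGs over 500 reads and with any library left out. For 2 against 0 doses (0) it was 24 in the fit of 23, 29 by limma and 3 with equal weights, and for 4 against 0 doses (0) it was 13, 37 and 10, and 0 to 1 with a library left out. A replicate block, although the numbers do not pair the libraries, gave 42 calls for old against young, 0 for 0 doses against young and 2 members for the interaction (0 without it). Shares of all tiles called were computed for the main fits only, not for these alternatives.

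Members that left in all libraries of a group, in the order young, old, 0, 2 and 4 doses, 10, 50 and 500 young cells, and 10, 50 and 500 old cells, numbered 6, 50, 12, 14, 20, 43, 61, 37, 49, 68 and 39 with a fetal level under 10%. At 50% or more they numbered 5, 8, 6, 5, 7, 6, 17, 9, 10, 15 and 8. With 40 or more CpGs they were 11 in young, 68 in old, 25 with 2 and 28 with 4 doses, 54 and 77 with 10 and 50 young cells, and 66 and 79 with 10 and 50 old cells. With a library left out the ranges were 26 to 31 in young, 143 to 147 in old, 38 to 41, 49 to 55 and 82 to 150 with 0, 2 and 4 doses, 87 to 96 with 10 young cells, and 108 to 177 and 79 to 123 with 10 and 500 old cells.

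Of 650 values over 57 named tiles, 468 kept their call, 175 fell short of it and 7 changed sign. Arhgap21 with age was 0.0857 points with 10 or more reads per CpG and 0.0356 without CpGs over 500 reads. The tile chr2:91297001-91298000 was 0.541 and 0.866 points with 10 or more reads per CpG, for 10 and 500 old cells. The tile chr9:43013001-43014000 with 500 old cells was 3.49 in the fit of 23 libraries and 0.0236 with equal weights, and Thrap3 with 0 doses was -1.05 without CpGs over 500 reads. The cause was not tested.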
